A study of Mus musculus with 17 samples.

Results

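RNA sequencing of AB12 tumors was examined here for 8 genes of the osteoclast fusion and resorption program: Tnfsf11, Tnfrsf11a, Nfatc1, Dcstamp, Ocstamp, Atp6v0d2, Acp5 and Ctsk. They were taken as the rows of the count table whose Ensembl identifier carries these symbols in Gencode vM21, which gave 8 of 55450 genes, each found once. The genes were selected on their counts in these same libraries, in the sense that earlier results for all 5 groups were known when they were chosen, so their levels and differences are given as a description, with no p-value. Where members passed the thresholds of the fit across all genes, their number is set beside the share of all genes that did, and nothing is inferred from it. Cells of AB12, a mesothelioma line of the mouse, were injected into the peritoneum of female BALB/c mice aged 8 weeks. Each of the 17 libraries came from the tumor of 1 mouse. Untreated tumors came from 3 mice on d6, 5 on d10 and 3 on d14, the early, intermediate and advanced phases of growth. Tumors of mice given 200 µg doses of the CTLA-4 blocking antibody 9D9 into the peritoneum came from 3 mice each on d10 and d14. For the treated d14 tumors, injections were on d6 and d10 as the study describes early treatment. How many injections preceded collection on d10 is not given in the sources used here. All groups carry the same tumor line and strain, and the tumors are whole tissue, in which tumor, immune and stromal cells are mixed.

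Osteoclasts are multinucleated cells that form when precursors of the monocyte lineage fuse. The ligand RANKL (Tnfsf11) binds its receptor RANK (Tnfrsf11a), and signalling from RANK together with CSF1 turns on the transcription factor NFATc1. NFATc1 in turn drives genes for cell fusion (Dcstamp, Ocstamp, Atp6v0d2) and for the acid and enzymes that dissolve bone (Acp5, Ctsk). Macrophages can fuse by overlapping machinery into giant cells, and several of these genes are also used by macrophages that never fuse. RANKL is made by activated T cells as well as by stromal cells and osteoblasts.

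Per kilobase of exon, the form in which genes can be set beside each other, Acp5 had the highest mean level of the 8 genes in untreated d10 tumors, with 25.7 normalized CPM per kb. CPM are counts scaled to a common library total, here corrected by TMM. Atp6v0d2 followed with 18.0 normalized CPM per kb, Nfatc1 with 8.36, Ctsk with 5.51, Ocstamp with 2.92, Tnfrsf11a with 2.53, Tnfsf11 with 1.35 and Dcstamp with 0.837. On the same scale Ctss, the macrophage protease cathepsin S, stood at 1433. Genes that mark mature osteoclasts and bone were near 0. Calcr, the calcitonin receptor, had at most 1 count in any library, and Oscar, an osteoclast immunoreceptor, had at most 6. Of the 9 osteoblast and osteocyte markers, Sp7, Ibsp and Sost had at most 1 count in any library and Bglap at most 4. Trem2, Pdpn and Atp6v1c1 were also at most 1 count in any library, and Atp6v1c1 encodes a broadly used proton pump subunit, so a count near 0 in this table is not read as absence of a transcript. The word osteoclast is used below only for the program the genes are known from.

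The 8 genes lie apart from each other in the mouse genome (GRCm38, Gencode vM21), all as protein coding genes. Tnfsf11 is at chr14:78277445-78308043 on the minus strand, Tnfrsf11a at chr1:105780718-105847981 on the plus strand, Dcstamp at chr15:39745930-39760938 on the plus strand, and Ocstamp at chr2:165393760-165400405 on the minus strand. Atp6v0d2 is at chr4:19876841-19922605 on the minus strand, Acp5 at chr9:22126727-22135711 on the minus strand, and Ctsk at chr3:95499256-95509362 on the plus strand. Acp5 shares 137 of its 2030 exon bases with the noncoding gene 6530413G14Rik on the opposite strand, and whether counting used strand is not given in the sources used here. The other members share no exon bases with another annotated gene.

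RefSeq promoter windows (GRCm38.p6, 250 bases before to 50 after a transcription start) were matched for 4 members. Windows of Acp5, Ctsk and Tnfrsf11a are shown by the 250 bases before the start, because Acp5 and Ctsk were both higher at d10 than at d6 whereas Tnfrsf11a hardly varied. They were searched on both strands for GGAAA (the NFAT core), TGANTCA (AP-1), GAGGAA (PU.1) and CACGTG (E-box), and matches are in capitals. The letters of GGAAA and GAGGAA can overlap.
Acp5, chr9:22130599-22130848, minus strand, the innermost of its 3 windows: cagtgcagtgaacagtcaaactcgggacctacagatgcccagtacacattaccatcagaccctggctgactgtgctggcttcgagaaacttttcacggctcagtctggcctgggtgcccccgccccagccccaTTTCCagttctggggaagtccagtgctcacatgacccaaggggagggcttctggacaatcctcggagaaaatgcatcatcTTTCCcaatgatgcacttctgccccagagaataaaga
Ctsk, chr3:95498960-95499209, plus strand: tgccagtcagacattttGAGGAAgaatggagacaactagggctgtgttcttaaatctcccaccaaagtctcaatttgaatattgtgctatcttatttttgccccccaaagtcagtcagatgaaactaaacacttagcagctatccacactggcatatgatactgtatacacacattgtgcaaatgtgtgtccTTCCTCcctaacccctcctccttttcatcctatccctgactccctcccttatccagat
Tnfrsf11a, chr1:105780473-105780722, plus strand: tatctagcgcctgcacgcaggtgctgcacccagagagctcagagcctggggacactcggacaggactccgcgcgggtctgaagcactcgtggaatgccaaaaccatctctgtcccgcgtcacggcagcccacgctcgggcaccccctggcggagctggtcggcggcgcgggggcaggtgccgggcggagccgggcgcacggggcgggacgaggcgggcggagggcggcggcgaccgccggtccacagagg
The Acp5 window held GGAAA at 2 positions, and each of its other windows at 1. The Ctsk window held GAGGAA at 2 positions, and GGAAA at 1 position that begins on the first base after the start and so lies outside the printed stretch. The Tnfrsf11a window held none of the 4 motifs, and the Tnfsf11 window held GGAAA at 1 position. Of all 32851 RefSeq windows, 61.3% held GGAAA, 28.3% GAGGAA, 7.81% TGANTCA and 7.15% CACGTG, so a match to GGAAA is common. A match is a description of these letters and not a bound site. The bases shortly after the start were found in Gencode transcripts for the printed Acp5 and Tnfrsf11a windows and for Tnfsf11. They were not found for Ctsk or the other Acp5 windows, so positions there refer to the RefSeq start only. The printed Ctsk stretch ends at 95499209, and the Gencode gene begins at 95499256.

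The 17 libraries held between 46371577 and 96759833 counts (median 72413343), and no pair of replicates agreed within sampling noise. Expression of 393 pseudogenes and small RNAs split the libraries into 3 sets that follow the groups only in part. Set 1 held the d6 libraries with untreated d10 replicates 1 to 3, set 2 held untreated d10 replicates 4 and 5 with the anti CTLA-4 d10 libraries, and set 3 held every d14 library. The d10 against d6 comparison can therefore be repeated within set 1, anti CTLA-4 against untreated at d10 within set 2, and the comparison of treatment at d14 lies within set 3 as it stands. With these 3 sets, tumor phase and library set cannot be told apart for d14 against an earlier day. Split into only 2 sets, the same 393 genes joined sets 2 and 3, so d14 against untreated d10 replicates 4 and 5 lies within a set of that coarser split, and d14 against d6 does not. In whole tumors, fewer cells of a type and less RNA per cell likewise cannot be told apart.

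**Figure D1:**
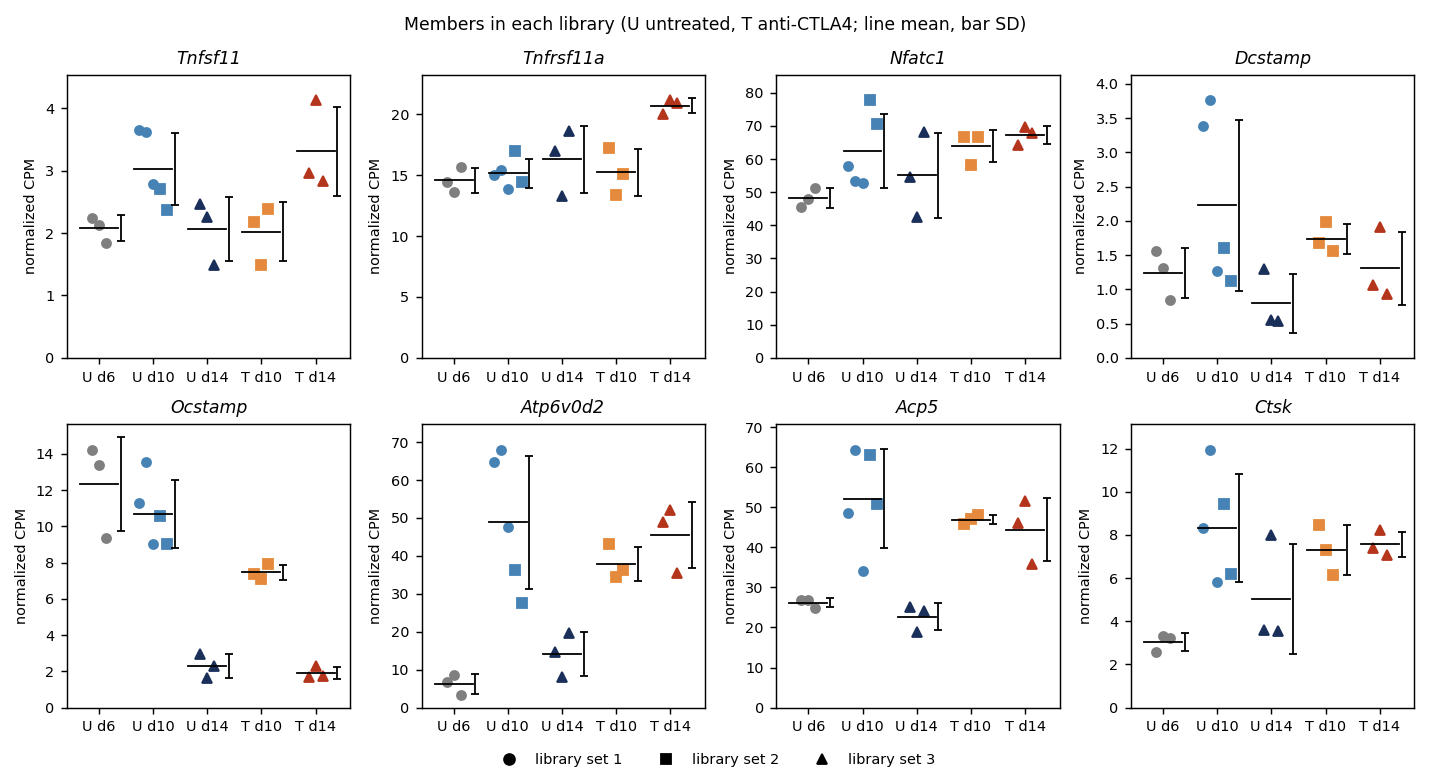
Normalized CPM (linear axes from 0) of the 8 genes in each of the 17 libraries, for untreated (U) and anti CTLA-4 treated (T) tumors; each point is 1 tumor, its shape gives the library set, horizontal lines are group means and bars are SD. Atp6v0d2, Acp5 and Ctsk are high at d10 and in treated d14 tumors, whereas the 6 d14 libraries hold the lowest values of Ocstamp whether or not the mice were treated.

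The ligand was scarce and its receptor steady. Tnfsf11 (RANKL) measured 2.25, 2.14 and 1.84 normalized CPM in the d6 tumors, 3.65, 3.62, 2.78, 2.71 and 2.37 in untreated d10 tumors, and 2.46, 2.26 and 1.49 in untreated d14 tumors. After anti CTLA-4 it measured 2.18, 1.49 and 2.39 normalized CPM at d10 and 2.97, 4.13 and 2.83 at d14. Every untreated d10 tumor thus lay above every d6 tumor, and every treated d14 tumor above every untreated d14 tumor, while the untreated d10 and d14 tumors overlapped. Tnfrsf11a (RANK) ranged only from 13.3 to 21.1 normalized CPM over all libraries. Its group means were 14.6 ± 1.01 (SD, n = 3) at d6, 15.1 ± 1.18 (n = 5) at d10 and 16.3 ± 2.72 (n = 3) at d14 in untreated tumors, and 15.2 ± 1.96 (n = 3) at d10 and 20.7 ± 0.610 (n = 3) at d14 in treated tumors. The treated d14 tumors, at 20.0, 21.1 and 20.9 normalized CPM, were the only group that did not overlap its neighbor in the order of means.

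Nfatc1, the transcription factor downstream of RANK, also varied little. Its mean was 48.2 ± 2.95 normalized CPM (SD, n = 3) at d6, 62.5 ± 11.2 (n = 5) at d10 and 55.0 ± 12.7 (n = 3) at d14 in untreated tumors, and 63.9 ± 4.91 (n = 3) and 67.3 ± 2.77 (n = 3) in treated tumors of d10 and d14. Each neighboring pair in this order of means overlapped. The untreated d10 tumors fell apart by library set, with 52.7 to 57.8 normalized CPM in replicates 1 to 3 and 70.7 to 77.7 in replicates 4 and 5.

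The fusion genes did not share a pattern. Atp6v0d2, a subunit of the proton pump whose d2 form is needed for efficient fusion of osteoclast precursors, measured 6.67, 8.52 and 3.28 normalized CPM at d6. It measured 64.7, 67.9, 47.6, 36.4 and 27.5 normalized CPM in untreated d10 tumors and 14.6, 8.15 and 19.8 in untreated d14 tumors. In treated tumors it measured 43.1, 34.5 and 36.3 normalized CPM at d10 and 49.0, 52.0 and 35.6 at d14. All d10 tumors and all treated d14 tumors therefore lay above all d6 and untreated d14 tumors, and those low groups overlapped each other. Within untreated d10, replicates 1 to 3 lay above replicates 4 and 5, which belong to another library set.

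Ocstamp, a multi-pass membrane protein of fusing osteoclasts, ran another way. It measured 14.2, 13.4 and 9.35 normalized CPM at d6, and 11.3, 13.5, 9.02, 10.6 and 9.00 in untreated d10 tumors. In treated d10 tumors it measured 7.34, 7.11 and 7.92 normalized CPM. At d14 it measured 2.97, 1.64 and 2.31 normalized CPM in untreated and 1.66, 2.31 and 1.75 in treated tumors. The d6 and untreated d10 tumors overlapped, treated d10 tumors lay just below them, and the d14 groups overlapped each other far below. Dcstamp, its relative in fusion, was the scarcest member, with 0.544 to 3.76 normalized CPM over all libraries. Its highest values were 3.39 and 3.76 normalized CPM in untreated d10 replicates 1 and 2, whereas the other untreated d10 tumors, at 1.27, 1.60 and 1.12, spanned a range that overlapped that of the d6 tumors at 1.56, 1.31 and 0.850. Every neighboring pair of groups overlapped for Dcstamp.

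The resorption genes followed Atp6v0d2 with smaller differences. Acp5, the tartrate-resistant acid phosphatase TRAP, measured 26.9, 26.9 and 24.9 normalized CPM at d6, 48.5, 64.3, 34.1, 63.0 and 50.8 in untreated d10 tumors and 25.2, 18.8 and 24.0 in untreated d14 tumors. In treated tumors it measured 45.8, 47.0 and 48.0 normalized CPM at d10 and 46.0, 51.5 and 35.8 at d14. The d6 and untreated d14 tumors overlapped, and all other tumors lay above them. Ctsk, cathepsin K, the collagen-degrading protease of osteoclasts, measured 2.58, 3.31 and 3.24 normalized CPM at d6 and 8.33, 11.9, 5.80, 9.42 and 6.18 in untreated d10 tumors. It measured 3.58, 7.98 and 3.54 normalized CPM in untreated d14 tumors, 8.48, 7.32 and 6.15 in treated d10 tumors and 7.39, 8.22 and 7.09 in treated d14 tumors. For Ctsk the d6 tumors stood alone at the bottom, and untreated d14 replicate 2 was separated from the other untreated d14 tumors.

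From the early to the intermediate phase, the proton pump subunit and the resorption genes were higher. The log2 fold change of untreated d10 over d6 was 3.01 (SE 0.39) for Atp6v0d2, 1.48 (SE 0.25) for Ctsk and 1.02 (SE 0.19) for Acp5. These 3 of the 8 members passed an adjusted p of 0.05 with a fold change above 2, the thresholds of the study, where 7.45% of all 16866 genes tested did in either direction and 4.79% did as higher. Dcstamp differed by 0.87 (SE 0.45) on the log2 scale, Tnfsf11 by 0.57 (SE 0.21), Nfatc1 by 0.40 (SE 0.15), Tnfrsf11a by 0.08 (SE 0.11) and Ocstamp by -0.18 (SE 0.18). In 5 members all d10 tumors lay above all d6 tumors, as in 14.1% of genes tested. Within library set 1 alone the log2 fold change was 3.31 (SE 0.29) for Atp6v0d2 and 1.54 (SE 0.25) for Ctsk. There it was 0.93 (SE 0.19) for Acp5, below the fold threshold, and 1.21 (SE 0.38) for Dcstamp, above it. Acp5 sits at the fold threshold and passed it in 11 of 18 alternative settings, with log2 fold changes from 0.88 to 1.13; without d6 replicate 3, untreated d10 replicate 2 or untreated d10 replicate 4 it was 0.98, 0.92 or 0.94.

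From the intermediate to the advanced phase, Ocstamp, Atp6v0d2 and Acp5 were lower. The untreated d10 tumors serve in both comparisons, so the values are set side by side and not related to each other. The log2 fold change of untreated d14 over d10 was -2.21 (SE 0.23) for Ocstamp, -1.78 (SE 0.35) for Atp6v0d2 and -1.21 (SE 0.21) for Acp5, and these 3 members passed the thresholds beside 7.23% of all 17659 genes tested, or 3.45% as lower. Their libraries did not overlap, as in 13.2% of genes tested in that direction. Dcstamp differed by -1.48 (SE 0.51), Ctsk by -0.73 (SE 0.34), Tnfsf11 by -0.55 (SE 0.24), Nfatc1 by -0.19 (SE 0.18) and Tnfrsf11a by 0.10 (SE 0.13) on the log2 scale. Without untreated d14 replicate 2 the value for Atp6v0d2 was -1.51 and no longer passed, and against untreated d10 replicates 4 and 5 alone it was -1.19 and passed, as did Ocstamp with -2.10 and Acp5 with -1.34. Dcstamp passed in 6 of 18 alternative settings, among them without untreated d10 replicate 3, with -1.62, and without untreated d10 replicate 5, with -1.65.

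Set against d6, the advanced untreated tumors kept part of the Atp6v0d2 difference. Its log2 fold change of d14 over d6 was 1.22 (SE 0.38), although their libraries overlapped, and it did not pass without d6 replicate 1, with 1.28, without d6 replicate 3, with 0.91, or without untreated d14 replicate 3, with 0.93. The value for Ocstamp was -2.40 (SE 0.25), and its libraries lay below d6 as in 31.6% of genes tested. These 2 members passed the thresholds beside 19.0% of all 17172 genes tested. The other members differed by between -0.62 for Dcstamp, which passed at -1.14 without untreated d14 replicate 1, and 0.75 for Ctsk on the log2 scale. Ctsk was the member whose d14 tumors all lay above d6, in a comparison where 29.5% of genes did so.

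**Figure D2:**
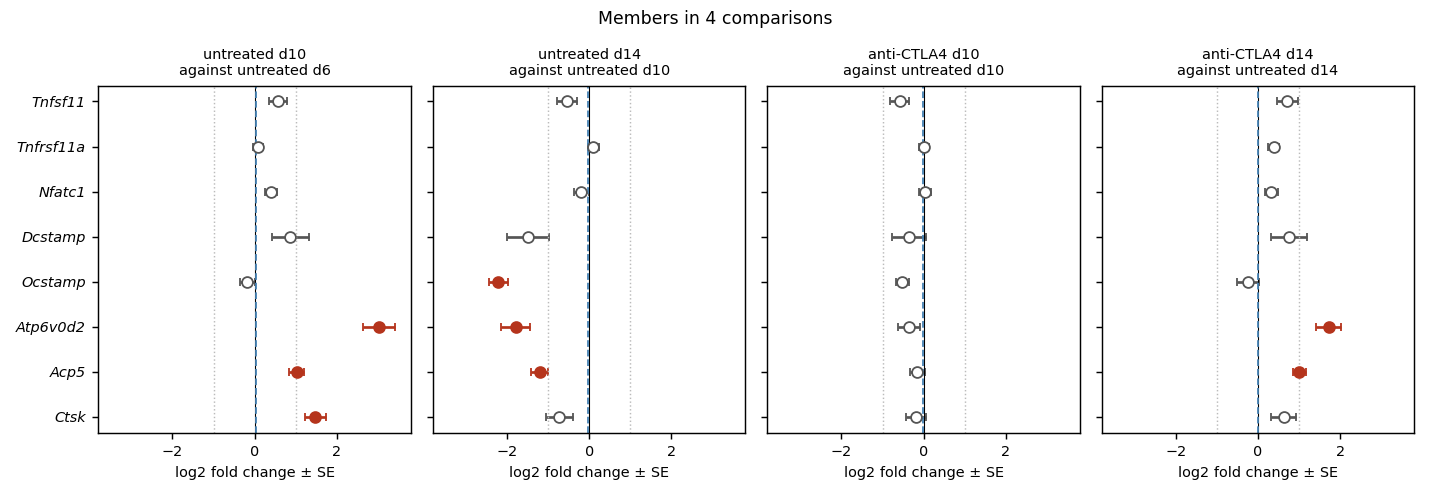
Log2 fold change with its SE for each member (rows) in 4 comparisons (panels); filled red points passed an adjusted p of 0.05 with a fold change above 2, dotted lines mark that fold, and the dashed blue line is the median of all genes tested. Atp6v0d2 reads 3.01, -1.78, -0.36 and 1.71 from left to right, whereas Ocstamp departs furthest from 0 at d14 against d10, at -2.21.

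Anti CTLA-4 treatment at d10 left no member past the thresholds, in a comparison where 0.0174% of 17258 genes tested passed. Log2 fold changes of treated over untreated d10 tumors ran from -0.58 (SE 0.23) for Tnfsf11 and -0.52 (SE 0.15) for Ocstamp to 0.03 (SE 0.14) for Nfatc1. The treated tumors lay below all untreated d10 tumors for Ocstamp alone, as in 4.59% of genes tested. Within library set 2, against untreated d10 replicates 4 and 5, the log2 fold change was -0.40 (SE 0.14) for Ocstamp, -0.34 (SE 0.25) for Tnfsf11 and -0.29 (SE 0.10) for Acp5. For Atp6v0d2 the value depended on which untreated tumors were used, being 0.24 (SE 0.14) against replicates 4 and 5 and -0.65 (SE 0.14) against replicates 1 to 3.

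At d14, the same antibody went with higher Atp6v0d2 and Acp5. The log2 fold change of treated over untreated d14 tumors was 1.71 (SE 0.30) for Atp6v0d2 and 1.01 (SE 0.16) for Acp5, and these 2 of 8 members passed beside 11.5% of 18062 genes tested, or 9.07% as higher. Dcstamp differed by 0.75 (SE 0.43), Tnfsf11 by 0.71 (SE 0.25), Ctsk by 0.63 (SE 0.30), Tnfrsf11a by 0.38 (SE 0.13), Nfatc1 by 0.32 (SE 0.16) and Ocstamp by -0.24 (SE 0.27) on the log2 scale. In 4 members, namely Atp6v0d2, Acp5, Tnfrsf11a and Tnfsf11, every treated tumor lay above every untreated tumor, as in 24.1% of genes tested. Acp5 stood again at the fold threshold, and without untreated d14 replicate 2 or treated replicate 2 its log2 fold change was 0.87 or 0.92. Without untreated d14 replicate 2 that of Ctsk was 1.11 and passed. Ocstamp, by contrast, had 2.31 ± 0.668 normalized CPM in untreated and 1.90 ± 0.351 in treated d14 tumors (SD, n = 3 each), a difference smaller than the spread between replicates.

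The treatment difference at d14 less that at d10 was 2.07 (SE 0.45) on the log2 scale for Atp6v0d2, 1.28 (SE 0.34) for Tnfsf11 and 1.14 (SE 0.27) for Acp5. These 3 members passed the thresholds, as did 11.8% of 18574 genes tested, or 9.67% as higher. Tnfsf11 no longer passed without treated d10 replicate 2, at 1.10, without treated d14 replicate 2, at 1.07, and with untreated d10 replicates 4 and 5 alone, at 1.04. These values were still above the fold threshold, and it was the adjusted p that did not pass. Ocstamp differed by 0.26 (SE 0.29), so the interval of 1 SE around its value spans 0.

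Markers of macrophages, T cells and fibroblasts moved beside several members. The summed level of 11 macrophage and monocyte markers lay between 2785 and 2950 normalized CPM at d6, 3303 and 5201 at untreated d10, 1497 and 2522 at untreated d14, 3132 and 3689 at treated d10, and 3853 and 4614 at treated d14. None of the 11 was at 0. Of these markers 5 were called lower in untreated d14 against d10 and 7 higher in treated against untreated d14, for instance Cd68 with log2 fold changes of -1.03 and 1.21 (edgeR, adjusted p = 0.0129 and 0.00686). The 9 T cell markers summed to between 72.0 and 75.9 normalized CPM at d6, 249 and 340 at untreated d10, 101 and 181 at untreated d14, 232 and 275 at treated d10 and 269 and 310 at treated d14. Of them 6 were called higher in untreated d10 against d6, 5 lower in untreated d14 against d10 and 5 higher in treated against untreated d14. Over all genes tested, the shares called in these directions were 4.79%, 3.45% and 9.07%, which also stand beside the counts of the other markers here. The 7 fibroblast markers, of which Pdpn was near 0, summed to between 2118 and 2278 normalized CPM at d6, 2184 and 3017 at untreated d10, 1296 and 2284 at untreated d14, 1616 and 2081 at treated d10 and 2843 and 4344 at treated d14. Of the 6 tested, 4 were called higher in treated against untreated d14, with a median log2 fold change of 1.17 beside 1.11 for the macrophage and 1.09 for the T cell markers. In the same comparison 1 of 5 dendritic cell markers was called higher, and the 4 B cell markers had a median of 0.92 without passing. Of the 7 mesothelial markers 2 were called higher, but 4 had a negative log2 fold change and the median was -0.37. The mesothelial markers summed to between 2764 and 2832 normalized CPM in untreated d14 tumors and between 1877 and 2093 in treated d14 tumors. Over the 17 libraries each member was compared with the summed macrophage, T cell and fibroblast markers, and its highest Pearson correlation is given. With the T cell markers it was r = 0.939 for Atp6v0d2, 0.782 for Nfatc1 and 0.776 for Ctsk. With the macrophage markers it was r = 0.843 for Acp5, 0.684 for Dcstamp and 0.294 for Ocstamp. With the fibroblast markers it was r = 0.782 for Tnfsf11 and 0.668 for Tnfrsf11a. Acp5 also reached r = 0.823 with the T cell markers, and Atp6v0d2 r = 0.734 with the macrophage markers. By Spearman correlation Atp6v0d2 was higher with the macrophage markers (rho = 0.887) than with the T cell markers (rho = 0.816). Acp5 had rho = 0.831 with both, and the other members kept the same list as highest. These values describe libraries that share group and library set. The part of these cells in the members' levels was not tested.

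Taken relative to the 11 macrophage and monocyte markers, as the log2 level of a member less the mean log2 level of the markers in the same library, some differences shrank and others did not. For Atp6v0d2 the relative level went from -4.78 ± 0.67 (SD, n = 3) at d6 to -2.09 ± 0.37 (n = 5) at d10, a difference of 2.69, and no libraries overlapped. Relative Acp5 was 0.73 and relative Ctsk 1.07 higher at d10 than at d6, also without overlap. In untreated d14 against d10, relative Acp5 differed by -0.23 with overlapping libraries, while relative Atp6v0d2 differed by -0.82 and relative Ocstamp by -1.08 without overlap. Between treated and untreated d14 tumors relative Atp6v0d2 differed by 0.72 and relative Ocstamp by -1.20 without overlap, and relative Acp5 by -0.05 with overlap. Nfatc1 and Tnfrsf11a, which had hardly differed in level, differed relative to the markers by 0.74 and 1.02 between untreated d14 and d10 tumors, and by -0.69 and -0.65 between treated and untreated d14 tumors, in each case without overlap.

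**Figure D3:**
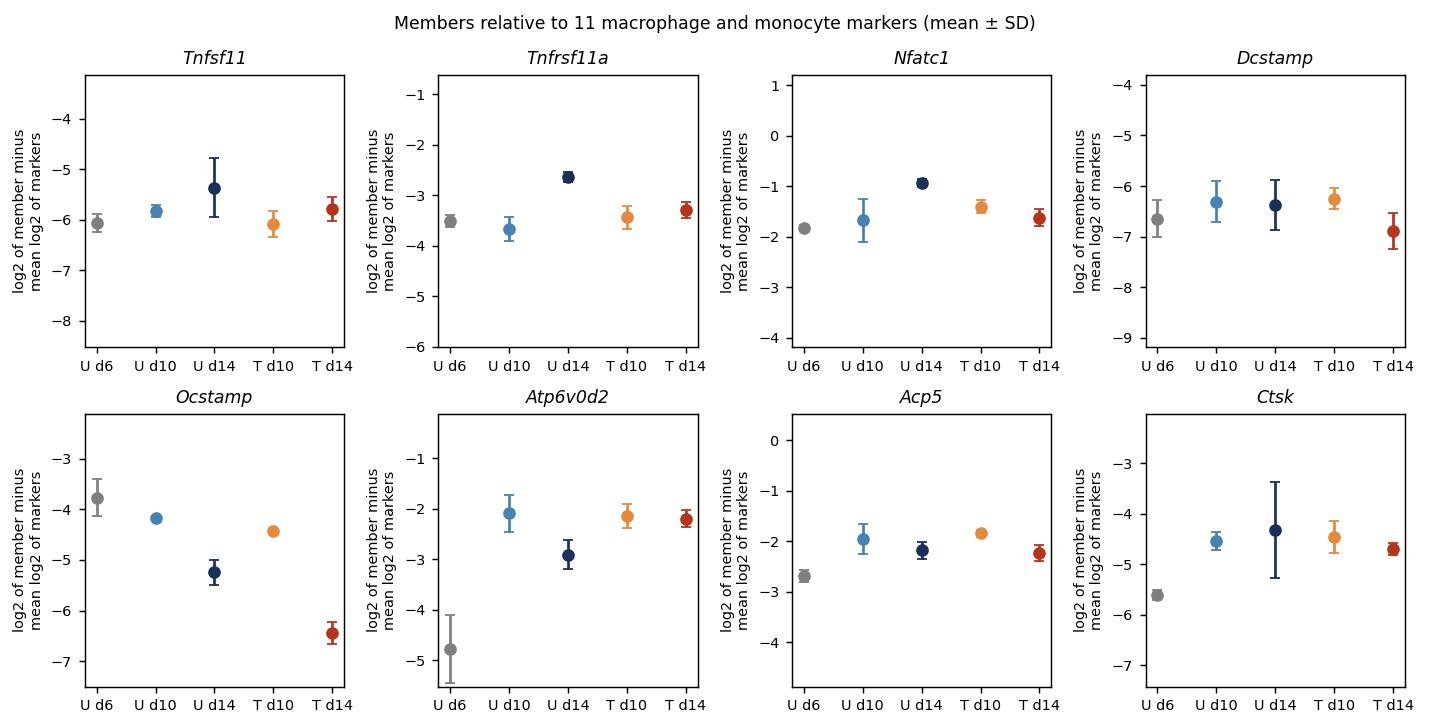
Log2 level of each member less the mean log2 level of 11 macrophage and monocyte markers of the same library, shown as group mean and SD (n = 3, or 5 for untreated d10); each panel spans the same range of log2 units. Relative Atp6v0d2 is -4.78 at d6 and -2.09 at untreated d10, and relative Ocstamp reaches its lowest mean, -6.45, in treated d14 tumors.

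Ocstamp stood apart from the other members in one further respect: all 6 d14 libraries lay below all 11 other libraries, which held for no other member and for 630 of 12378 protein coding genes whose mean reached 1 normalized CPM (5.09%). Its mean in the 11 earlier libraries was 4.87 times that in the 6 d14 libraries. Among those 630 genes a ratio at least as high was found for 5 genes including Ocstamp, the others being Clca3b, Il1f6, Stra6 and Igfbp2, which fall outside the naming rule and were picked for this ratio. The 3 protein coding genes whose log2 levels were most like those of Ocstamp over the 17 libraries were Rp9 (Pearson r = 0.967), Sdhb (r = 0.964), a subunit of succinate dehydrogenase, and Pfn1 (r = 0.958), the actin-binding protein profilin. Pfn1 had 1278 ± 62.9 normalized CPM at d6 and 724 ± 45.5 at untreated d14 (SD, n = 3 each), so its ratio between days was far smaller than that of Ocstamp. The points share library set and day, and every d14 library is of set 3. How often nearest genes held under other settings is given below for all members together.

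**Figure D4:**
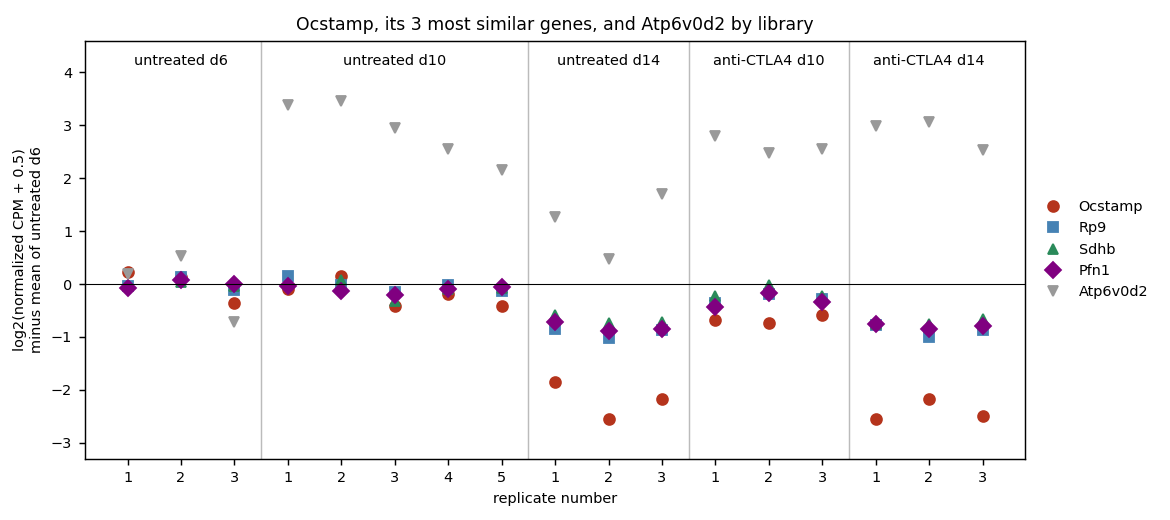
Log2(normalized CPM + 0.5) less the mean of the untreated d6 libraries, for Ocstamp, the 3 genes most like it and Atp6v0d2 in each library, with vertical lines between groups. Ocstamp, Rp9, Sdhb and Pfn1 are lowest in the 6 d14 libraries, whereas Atp6v0d2 is high in the treated d14 libraries.

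The other members had different nearest genes over the same 17 libraries. Those of Atp6v0d2 were Magee1 (r = 0.969), Thy1 (r = 0.961), the T cell and fibroblast surface protein, and Gdpd1 (r = 0.959). Those of Acp5 were Map1lc3a (r = 0.962), an autophagy protein, Ctsa (r = 0.961), a lysosomal protease, and Ninj1 (r = 0.961). Nfatc1 was most like Lpar5 (r = 0.973), Fam102a (r = 0.944) and Zbtb42 (r = 0.929), and Tnfrsf11a most like Ece1 (r = 0.932), Camk1d (r = 0.931) and Ppp1r12b (r = 0.929). Tnfsf11 was most like Mdk (r = 0.924), Lamb1 (r = 0.891), a laminin chain, and Cyp1b1 (r = 0.874). For the scarcer Dcstamp they were Clec1b (r = 0.888) and the chemokines Ccl8 (r = 0.867) and Ccl6 (r = 0.866), and for Ctsk Calhm5 (r = 0.858), Nrcam (r = 0.857) and Clec4n (r = 0.856). No nearest gene was shared between members.

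Beyond the 8 members, 70 genes of the pathway were listed, of which 66 had enough counts to be tested in each comparison. Trem2, Oscar, Calcr and Atp6v1c1 were the others. This list and the marker lists were also chosen with earlier results of these data known. Their counts and adjusted p therefore describe these libraries and are not independent of that choice. From d6 to d10, 4 of the 66 rose and 1 fell, a share close to the 7.45% of all genes that passed in this comparison. Adam8, a surface protease, rose by 1.43 (SE 0.13) on the log2 scale, the proteases Ctss by 1.40 (SE 0.27) and Ctsd by 1.27 (SE 0.21), and Sirpa, a receptor for CD47 that takes part in macrophage fusion, by 1.12 (SE 0.16), with edgeR adjusted p = 0.000244, 0.00778, 0.00369 and 0.00183. Tnfrsf11b, which encodes osteoprotegerin, the decoy receptor that blocks RANKL, fell by 1.04 (SE 0.15), from 23.8 ± 4.35 to 11.3 ± 1.41 normalized CPM (edgeR, adjusted p = 0.00193). Without d6 replicate 1 its log2 fold change was -0.89, below the fold threshold. Mmp9 differed by 1.19 (SE 0.53), Itgb3 by 0.89 and Csf1r by 0.60 without passing, Mmp9 passing at 1.42 without untreated d10 replicate 4 and Itgb3 at 1.01 without d6 replicate 1. The median log2 fold change of the 66 genes was 0.17, beside 0.03 over all genes tested.

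From d10 to d14 in untreated tumors 7 of the 66 fell and none rose, where 3.45% of all genes tested fell and 7.23% passed in either direction, with a median of -0.37 beside -0.04 over all genes. Fcer1g, a signalling adaptor of immunoreceptors, fell by 1.51 (SE 0.31) on the log2 scale, Ctss by 1.50 (SE 0.34), Spi1, the myeloid transcription factor PU.1, by 1.23 (SE 0.24), and Ctsz by 1.19 (SE 0.19), with edgeR adjusted p = 0.0134, 0.0173, 0.0106 and 0.00663. Ctsh, Ctsc and Tyrobp, another adaptor, fell by 1.14, 1.03 and 1.03. The count moved with single libraries: it was 1 without untreated d14 replicate 2, 13 without untreated d14 replicate 3, and 4 without untreated d10 replicate 2. Among the genes named whatever their value, Mmp9 differed by -1.26 (SE 0.59), Csf1r by -0.84, Itgb3 by -0.58 and Tnfrsf11b by -0.57 without passing, Csf1r passing at -1.11 without untreated d14 replicate 3.

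Against d6, Adam8 was the 1 gene that rose at d14, with 1.19 (SE 0.11) on the log2 scale, and 5 genes fell. These 6 of 66 are a smaller share than the 19.0% of all genes tested that passed. Those that fell were Tnfrsf11b with -1.62 (SE 0.16), Fcer1g with -1.56 (SE 0.18), Spi1 with -1.25 (SE 0.21), Btk, a kinase of immunoreceptor signalling, with -1.18 (SE 0.21), and Ctsz with -1.04 (SE 0.15), with edgeR adjusted p between 6.91e-05 and 0.00175 for all 6. Car2 differed by -0.83, Csf1 by -0.54, Atp6v0d1 by -0.31, Tcirg1 by -0.25, Csf1r by -0.24, Mmp9 by -0.08 and Itgb3 by 0.31 without passing. Without untreated d14 replicate 2 the value for Ctsz was -0.87 and did not pass.

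For treatment at d10, 0 of the 66 genes passed by edgeR and 0 by DESeq2. Over all 17258 genes tested, 3 (0.0174%) passed by edgeR and 223 by DESeq2, so the count of 0 is no trait of these genes. An unadjusted edgeR p below 0.05 was found for 6 of the 66, and for 2329 of all 17258 genes tested. The log2 fold changes of the genes named whatever their value ran from -0.68 (SE 0.52) for Mmp9 to 0.32 (SE 0.12) for Itgb3, with Csf1r at -0.16, Tnfrsf11b at -0.26, Tcirg1 at 0.29, Car2 at -0.15, Csf1 at 0.03 and Atp6v0d1 at 0.05. At d14, 13 of the 66 rose with treatment and none fell, where 9.07% of all genes tested rose, with a median of 0.40 beside -0.0043 over all genes. The largest were Mmp9, the gelatinase of osteoclasts and neutrophils, with 1.66 (SE 0.34), Sirpa with 1.51 (SE 0.27), Csf1r, the CSF1 receptor, with 1.50 (SE 0.26), Ctsh with 1.46 (SE 0.20), Ctss with 1.40 (SE 0.28) and Syk, a kinase, with 1.35 (SE 0.23) on the log2 scale. Their edgeR adjusted p were 0.0116, 0.00846, 0.00778, 0.00511, 0.0111 and 0.00753. Itgb3, the integrin chain of the osteoclast vitronectin receptor, rose by 1.14 (SE 0.11), from 14.8 ± 2.01 to 31.9 ± 1.32 normalized CPM (edgeR, adjusted p = 0.00365).

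By role, those that rose with treatment at d14 were 4 of 11 lysosomal proteases and membrane proteins, 3 of 11 transcription factors and repressors, 2 of 6 immunoreceptor adaptors and kinases, 2 of 8 fusion partners, 1 of 10 acid secretion and resorption genes and 1 of 6 genes of the RANKL and CSF1 axes. Among the transcription factors Spi1 rose by 1.25 and Mitf by 1.19 on the log2 scale. None of the 14 shared proton pump subunits tested passed in any comparison, where between 0.0174% and 19.0% of all genes tested passed. With 14 genes this is not read as a trait of the subunits. Among them Atp6v0d1, the widely expressed counterpart of Atp6v0d2, had log2 fold changes of 0.13 (SE 0.16) at d10 against d6, -0.44 (SE 0.16) at d14 against d10 and 0.22 (SE 0.09) in treated against untreated d14 tumors. Tnfrsf11b differed by 0.40 (SE 0.22) with treatment at d14 and did not pass. Tcirg1, the a3 proton pump subunit, had -0.27, 0.02 and 0.75 in these comparisons, Car2, the carbonic anhydrase of osteoclasts, had -0.27, -0.56 and -0.29, and the ligand Csf1 had -0.38, -0.15 and 0.36, none of them passing.

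**Figure D5:**
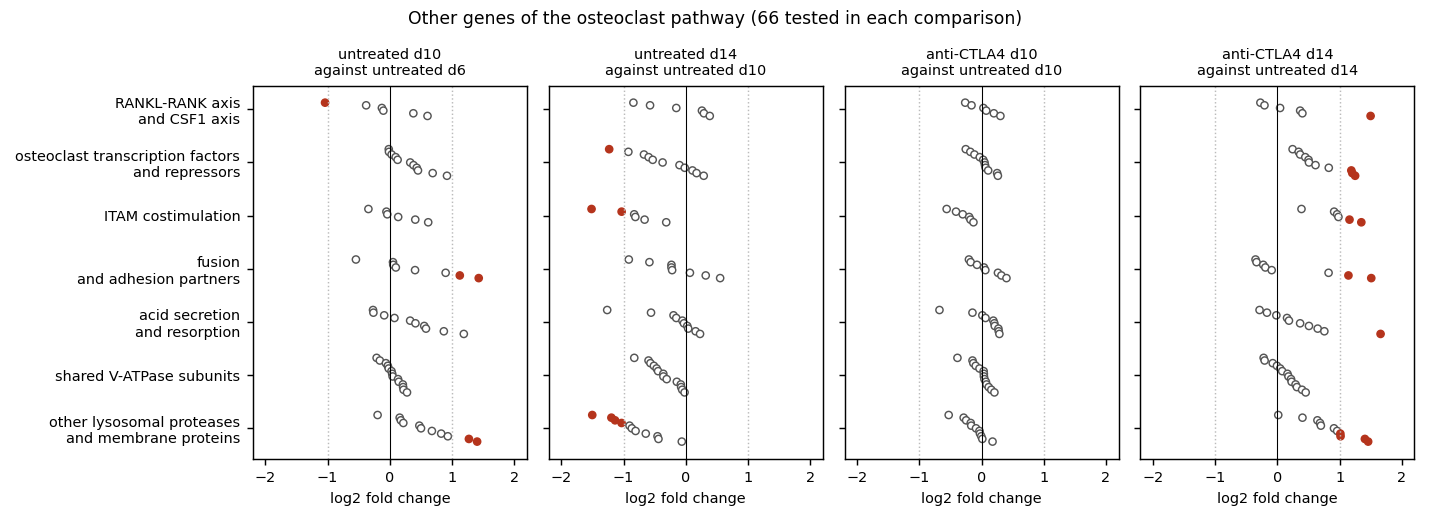
Log2 fold change of the 66 tested pathway genes other than the members, by role (rows) in 4 comparisons (panels); each point is 1 gene, filled red points passed an adjusted p of 0.05 with a fold change above 2, and dotted lines mark that fold. The 14 shared proton pump subunits hold no red point, and all 13 red points of treated against untreated d14 tumors lie to the right of 0. Of all genes tested, 7.45%, 7.23%, 0.0174% and 11.5% passed in the panels from left to right.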

How the data were processed

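RNA from 17 AB12 tumors was measured. Per the study's methods, KAPA RNA HyperPrep libraries were read paired-end, TopHat2 2.0.14 placed the reads on GRCm38, and HTSeq summed those that mapped uniquely over Gencode vM21 genes. The deposited values are raw counts per gene, without normalization. Whether counting used strand, and which instrument read which library, are not given in the sources used here.

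Groups and replicate numbers were taken from the labels. The members and gene lists were chosen with earlier results of these data known. Counts were scaled by TMM and tested with edgeR 4.0.16 (quasi-likelihood, filterByExpr, only the groups compared, all groups but d6 for the difference between treatment effects), with Benjamini-Hochberg adjustment over all genes tested, an adjusted p below 0.05 and a fold change above 2 (R 4.3.3). DESeq2 1.42.0, other filters and scaling, thinned counts, a replicate block, library sets and leaving out each replicate were alternatives. Logs used log2(CPM + 0.5). Totals were 46371577 to 96759833 counts. For abundant genes the spread between mice sets the precision, whereas for Dcstamp and Tnfsf11, with as few as 42 and 91 counts in a library, counting error adds to it.

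Named in the text were all members, 11 pathway genes regardless of value (Tnfrsf11b, Csf1, Csf1r, Trem2, Oscar, Mmp9, Itgb3, Calcr, Tcirg1, Car2, Atp6v0d1), up to 6 called pathway genes per direction, and the 3 genes most correlated with each member. Tyrobp is named beyond this rule, as are Mitf and Spi1 at d14 under treatment and the genes set beside Ocstamp for their ratio. Other listed genes enter as counts, and the values of 1 gene are not reported here.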

Additional observations from a re-analysis of the deposited data

Results flagged for a closer look

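For 7 named pathway genes the effect of treatment at d14 differed from that at d10 by the test of that difference itself (edgeR, adjusted over all genes). The difference on the log2 scale was 2.32 for Mmp9 (adjusted p = 0.0419), 1.92 for Ctss (adjusted p = 0.00945), 1.71 for Fcer1g (adjusted p = 0.0106), 1.67 for Sirpa (adjusted p = 0.0057), 1.65 for Csf1r (adjusted p = 0.00673), 1.62 for Ctsh (adjusted p = 0.00415) and 0.81 for Itgb3 (adjusted p = 0.0096), the last below the fold threshold. Of the 66 tested genes 16 passed both thresholds, all with the higher value at d14, where 11.8% of all genes passed. The result for Mmp9 passed in 13 of 24 alternatives, with values from 1.16 to 2.83. It did not pass without untreated d10 replicate 1 or 2, untreated d14 replicate 2 or 3, or any 1 of the treated libraries. Nor did it pass with untreated d10 replicates 4 and 5 alone, at 1.16. The libraries of d10 and d14 belong to different sets when 3 library sets are formed, and day and library set then cannot be told apart. When 2 are formed, untreated d10 replicates 4 and 5, the treated d10 libraries and all d14 libraries share 1 set, and with these alone 14 of the 66 passed. In the same direction 7 of 11 macrophage, 7 of 9 T cell, 5 of 6 fibroblast, 4 of 4 B cell and 3 of 5 dendritic cell markers passed, beside 9.67% of all genes. Of the 7 mesothelial markers 3 passed in that direction, while 4 had a negative difference and the median was -0.44. The part of these markers in this difference was not tested.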

How the results depend on the processing

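Replicate numbers did not pair the tumors: deviations of same-numbered libraries correlated between -0.298 and 0.196 (median 0.00775, 30 pairs). With the number as a replicate block, pathway genes called at d10 against d6 went from 5 to 8 and for treatment at d10 from 0 to 1. Using untreated d10 replicates 1 to 3 gave 8 and 1 (Mmp9, at -1.12 here and -1.01 with the block), and replicates 4 and 5 gave 3 for d10 against d6 and 3 in place of 7 for d14 against d10, which leaving out 1 replicate moved between 1 and 13. No other count of pathway genes moved by over 1.5 times.

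Counts over all genes moved more. Leaving out a replicate gave 810 to 1377 for d10 against d6 (1257 with all replicates), 281 to 1528 for d14 against d10 (1277), 0 to 115 for treatment at d10 (3), 1172 to 2851 for treatment at d14 (2072) and 1315 to 2598 for the difference between treatment effects (2196). Other settings gave 954 to 2794, 707 to 2001, 0 to 1210, 1587 to 2355 and 1856 to 3172, and 1995 to 4333 for d14 against d6 (3270). DESeq2 called 223 for treatment at d10 and the block 1210.

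Of 848 member values 829 stayed within the spread between replicates. Pathway values that changed sign passed neither in the main fit nor in the setting where the sign changed. Mmp9 under treatment at d10 was among them, although it passed in other settings, at -1.12 with replicates 1 to 3 and -1.01 with the block. Leaving out 1 replicate, Tcirg1 ranged from -0.43 to 0.034 at d10 against d6, -0.052 to 0.11 at d14 against d10 and -0.41 to 0.048 at d14 against d6, where Csf1r ranged from -0.49 to 0.011 and Mmp9 from -0.58 to 0.21. For treatment at d10, Csf1 ranged from -0.010 to 0.071 and Atp6v0d1 from -0.047 to 0.12. Untreated d10 replicates 4 and 5 gave -0.18 for Tcirg1 at d14 against d10, and 0.50 for Mmp9 and -0.19 for Atp6v0d1 under treatment at d10. Atp6v0d1 gave -0.056 with the block and -0.047 with replicates 1 to 3 at d10 against d6, and -0.026 and -0.017 for the difference between treatment effects. The cause was not tested.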

Other observations

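Adam8, one of the fusion partners, was high in both treated groups, with 450 ± 19.1 normalized CPM at d10 and 504 ± 10.1 at d14 (SD, n = 3 each), against 341 ± 39.5 (n = 5) and 292 ± 18.1 (n = 3) in untreated tumors of those days and 129 ± 18.0 (n = 3) at d6. The 4 B cell markers summed to between 2.59 and 6.38 normalized CPM in treated d10 tumors, between 8.62 and 130 in untreated d10 tumors and between 19.3 and 30.6 in treated d14 tumors. Phex, listed as a bone marker, had 2.34 normalized CPM in untreated d14 tumors, 1.04 in treated d14 tumors and between 0.450 and 0.690 in the other groups. Runx2 had between 43.9 and 73.9 normalized CPM in every group, while Sp7, another bone transcription factor, had at most 1 count in any library.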
